A study of Mus musculus with 18 samples.

Results

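The 10 melanocyte and pigmentation genes Tyr, Tyrp1, Dct, Pmel, Mlana, Mc1r, Oca2, Slc45a2, Mitf, and Kit were followed in the mouse whisker pad after facial nerve transection, out of 35150 genes measured. They were chosen by name, and the values of each gene's Ensembl transcripts were summed. In each of 9 adult mice the facial nerve was cut on the right (denervated) side, at its buccal and superior marginal branches, and the left side had a sham operation in which the skin was opened but the nerve was left whole. Skin with the muscle beneath it was taken with a 3-mm punch from both rostral whisker pads at day 1, 3, or 7 (3 mice and 6 samples a day, 18 samples in all), so that denervation and the right side of the face cannot be told apart. The day 7 mice are numbered here in the order of their records, since their labels and the table's column names number them differently, and a mouse number is only a name. The surgery was done under isoflurane, no transgene is named for these mice, and their strain and coat color are not given in the sources used here. The study used mice of both sexes, and the paper gives a range of ages for its RNA-seq mice.

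Melanocytes make melanin in melanosomes, organelles related to lysosomes, and in furred skin most of them sit in the hair follicles, where they pass pigment to the growing hair. Tyrosinase (Tyr) carries out the first and rate-limiting step, Dct and Tyrp1 act on later intermediates of the same pathway, and Pmel forms the fibrils on which the pigment is laid down. The transcription factor Mitf drives these genes, and signaling through the receptor tyrosine kinase Kit is needed for melanoblasts to survive and migrate. Mitf and Kit are not specific to melanocytes: mast cells also need both, and Mitf has several promoters that are used in different tissues.

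The genes of the melanin enzymes Tyr, Tyrp1, and Dct share a short DNA element, which is shown here as background. Its part in the levels below was not tested. The windows run 5′ to 3′ from 250 bases before to 50 bases after the RefSeq transcription start (build GRCm38.p6), and capitals mark CATGTG, the E-box that MITF binds, on either strand, with the T before it where this makes the longer TCATGTG.
Tyr, chr7:87493463-87493762, - strand: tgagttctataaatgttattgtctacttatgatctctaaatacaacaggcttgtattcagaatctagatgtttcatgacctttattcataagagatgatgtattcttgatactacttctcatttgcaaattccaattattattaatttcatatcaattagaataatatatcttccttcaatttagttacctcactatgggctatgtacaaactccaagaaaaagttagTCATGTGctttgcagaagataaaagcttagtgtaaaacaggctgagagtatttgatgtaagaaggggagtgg
Tyrp1, chr4:80833963-80834262, + strand: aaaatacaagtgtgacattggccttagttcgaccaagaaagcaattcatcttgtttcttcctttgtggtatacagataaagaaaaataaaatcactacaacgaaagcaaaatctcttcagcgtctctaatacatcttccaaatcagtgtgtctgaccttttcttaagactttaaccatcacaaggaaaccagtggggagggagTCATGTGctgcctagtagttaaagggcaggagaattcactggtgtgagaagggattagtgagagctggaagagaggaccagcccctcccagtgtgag
Dct, chr14:118052197-118052496, - strand: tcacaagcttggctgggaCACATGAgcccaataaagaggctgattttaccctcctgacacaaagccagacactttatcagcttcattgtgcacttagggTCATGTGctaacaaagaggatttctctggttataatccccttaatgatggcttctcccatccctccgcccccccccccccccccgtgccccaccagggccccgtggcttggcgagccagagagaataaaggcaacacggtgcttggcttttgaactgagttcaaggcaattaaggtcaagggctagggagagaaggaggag
Mc1r, chr8:123406832-123407131, + strand: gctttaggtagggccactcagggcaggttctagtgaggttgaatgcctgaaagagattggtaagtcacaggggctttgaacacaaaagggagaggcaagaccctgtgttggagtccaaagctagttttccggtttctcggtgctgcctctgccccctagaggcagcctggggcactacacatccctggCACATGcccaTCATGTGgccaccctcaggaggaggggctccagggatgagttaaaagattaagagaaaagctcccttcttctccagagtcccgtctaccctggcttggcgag
TCATGTG began at position -22 from the start in Tyr, -47 in Tyrp1, -52 in Mc1r, and -151 in Dct, where a copy on the opposite strand began at -232. RefSeq windows were found for 7 of the 10 genes, and not for Pmel, Mlana, or Slc45a2. CATGTG without the leading T was read on the opposite strand in the Oca2 window, at -186, and in the Mc1r window, at -62. CATGTG was not in the windows of Mitf or Kit. Over all 32851 windows of this length, 14.2% held CATGTG and 3.77% held TCATGTG on either strand, and the second letters contain the first. These are matches of letters and do not show binding.

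All 10 genes were detected in every one of the 18 samples at the depth used, at mean levels that ran from that of Dct down to that of Oca2. Values are TPM as the authors normalized it, a level per transcript length, so that genes can be set side by side. Dct was the highest, with a mean of 17.7 TPM, and it was above Pmel (11.7) in 18 of 18 samples. Pmel and Mlana (11.6), a small melanosomal protein, did not separate, since Pmel was the higher in 11 of 18 samples. Mlana was above Kit in 13 of 18 samples. Kit (7.12), Mitf (7.00), and Tyrp1 (6.98) formed a group whose order changed between samples, with Kit above Mitf in 7 of 18 and Mitf above Tyrp1 in 9 of 18. Tyrp1 was above the next gene in 18 of 18 samples. This order is that of the sums, which include transcripts annotated as retained introns. The coding transcripts alone were assigned a mean of 12.6 TPM for Dct and 0.852 TPM for Kit.

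The last 4 genes were low and rest on few reads. They were Mc1r (1.05 TPM), the receptor for melanocyte-stimulating hormone, Tyr (0.856), Slc45a2 (0.585), a melanosomal transporter, and Oca2 (0.525), a melanosomal channel protein. Mc1r was above Tyr in 11 of 18 samples and Slc45a2 above Oca2 in 11 of 18. The depth of the libraries, estimated from the steps between low values, ran from 10600000 to 32900000 reads with a median of 14700000. At this depth the median sample held about 348.7 reads for Dct, but 16.4 for Oca2 and 17.4 for Slc45a2, and the lowest sample held 4.0 for Oca2, so counting error alone is large for these genes. Tyr had 49.6 reads in the median sample.

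The spread was large for the melanocyte genes and small for Mitf. Dct was lowest at 6.09 TPM and highest at 37.9 TPM, 6.22-fold apart, and Tyrp1 spanned 7.54-fold, Mlana 9.74-fold, and Tyr 12-fold. The highest sample was the sham side of day 1 mouse 2 and the lowest the sham side of day 7 mouse 1 for Tyr, Tyrp1, Dct, Pmel, Mlana, and Mc1r alike. Thus both ends of the range lay on the side with an intact nerve. Mitf spanned only 1.7-fold and Kit 4.13-fold, and their extremes fell in other samples. In bulk tissue, fewer melanocytes and less RNA per melanocyte cannot be told apart.

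**Figure D1:**
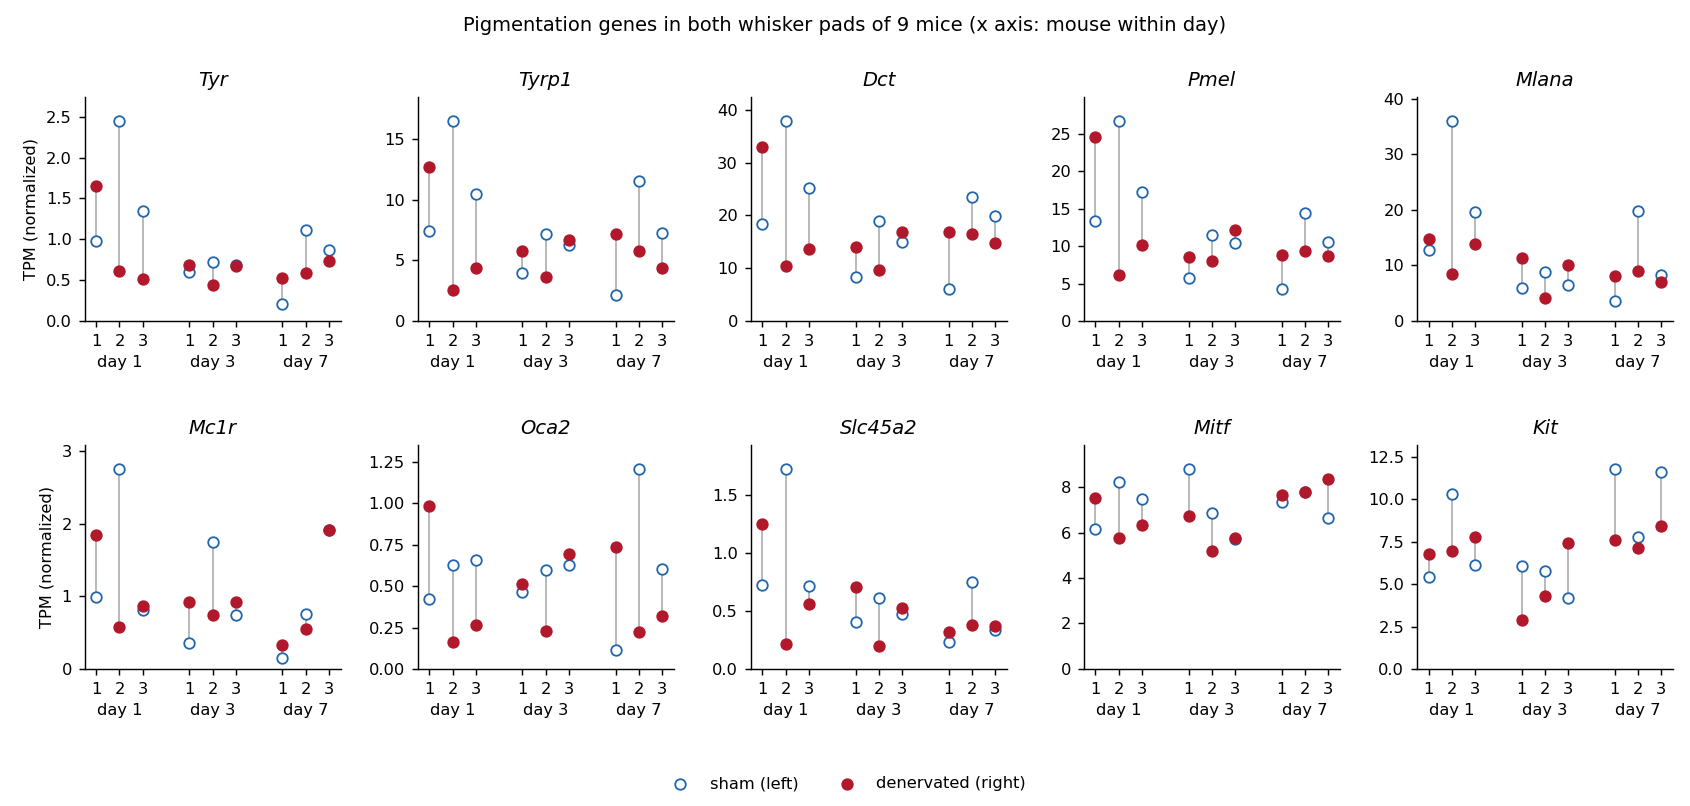
Level of each of the 10 genes (TPM as normalized by the authors, linear axis from 0, scale set per gene) in the sham (open circles) and denervated (filled circles) whisker pad of each mouse, with a gray line joining both sides of a mouse and 3 mice a day. Dct, Pmel, Mlana, and Tyrp1 peaked together in the sham side of day 1 mouse 2, and the filled circles lay above the open ones in some mice and below them in others.

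The first question was whether denervation changed these genes. Dopachrome tautomerase, the product of Dct, converts dopachrome in the eumelanin pathway. At day 1, Dct was at 18.4, 37.9, and 25.2 TPM in the sham side of mice 1, 2, and 3, and at 32.9, 10.5, and 13.7 TPM in the denervated side of the same mice. At day 3 it was at 8.34, 19, and 15 TPM (sham) against 14, 9.59, and 16.8 TPM (denervated). At day 7 it was at 6.09, 23.5, and 19.9 TPM against 16.8, 16.5, and 14.8 TPM. The sides overlapped at every day, and the denervated side was the higher in 4 of 9 mice.

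Tyrp1, which acts downstream of Dct, was at 7.40, 16.5, and 10.5 TPM in the sham side at day 1 and at 12.7, 2.58, and 4.34 TPM in the denervated side. At day 3 the sham values were 3.95, 7.19, and 6.27 TPM and the denervated values 5.81, 3.60, and 6.68 TPM. At day 7 they were 2.18, 11.5, and 7.24 TPM against 7.14, 5.75, and 4.36 TPM. The same 4 mice had the higher value on the denervated side as for Dct.

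Pmel at day 1 was at 13.3, 26.7, and 17.2 TPM (sham) and 24.6, 6.11, and 10.2 TPM (denervated). Its day 3 values were 5.77, 11.5, and 10.4 TPM against 8.57, 7.95, and 12.2 TPM, and its day 7 values 4.24, 14.4, and 10.6 TPM against 8.86, 9.39, and 8.65 TPM. As for Dct and Tyrp1, the denervated side was the higher in mouse 1 of day 1, mice 1 and 3 of day 3, and mouse 1 of day 7. Of Pmel's exons, 105 bases overlap Dgka and 34 overlap Cdk2 on the opposite strand, and strand was not recorded by this type of library. Reads in those bases cannot be told apart.

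Mlana was at 12.8, 36.0, and 19.6 TPM in the sham side at day 1 and at 14.7, 8.50, and 13.9 TPM in the denervated side. At day 3 it was at 5.97, 8.86, and 6.43 TPM against 11.4, 4.09, and 10.1 TPM. At day 7 it was at 3.70, 19.8, and 8.25 TPM against 8.13, 8.93, and 7.10 TPM. The highest value of Mlana was therefore in a sham whisker pad as well.

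None of the 10 genes passed the test of denervated against sham. Levels were compared on log2(TPM + 0.5) with limma, with p adjusted by Benjamini-Hochberg over all genes with at least 1 TPM in at least 47% of samples. Over all days, 0 of the 6 genes tested passed an adjusted p of 0.05, where 3.1% of all 14757 genes did, and 0 of the 6 had an unadjusted p below 0.05. Tyr passed the filter at day 1 alone, and Mc1r, Oca2, and Slc45a2 did not pass it in any comparison of all mice with the values as deposited. The log2 differences over all days were -0.37 for Tyrp1 (SE 0.31, 95% interval -1.03 to 0.29, adjusted p = 0.674 in limma), -0.16 for Dct (interval -0.74 to 0.42), -0.17 for Pmel (-0.73 to 0.38), and -0.23 for Mlana (-0.84 to 0.37). The interval was narrowest for Mitf, at -0.09 (-0.28 to 0.11), and Kit was at -0.19 (-0.52 to 0.14). The median over the 6 genes was -0.18, against 0.01 over all genes.

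By day, 0 of 7 genes passed at day 1 (0% of 14776 genes, with 634 at an unadjusted p below 0.05 and 0 of the 7 among them), 0 of 6 at day 3 (1.45% of 14943), and 0 of 6 at day 7 (1.53% of 15081). The day 1 differences were the widest, at -0.97 for Tyrp1 (interval -2.33 to 0.40), -0.77 for Mlana (-1.73 to 0.20), -0.63 for Pmel (-1.87 to 0.61), -0.61 for Dct (-1.73 to 0.51), and -0.58 for Tyr (-1.56 to 0.40), each with an adjusted p of 0.999 in limma. They rested on mouse 2: without it they were -0.22 for Tyrp1, -0.14 for Mlana, 0.07 for Pmel, -0.01 for Dct, and -0.16 for Tyr. Without mouse 1 they were -1.82, -1.25, -1.38, -1.33, and -1.14 in the same order, and 0 of the 7 passed. Both samples of day 1 mouse 1 stood apart in their makeup, with 2533 and 3895 TPM summed over 8 skeletal muscle markers where the other 16 samples had at least 7751. At days 3 and 7 the differences of the tested melanocyte genes other than Mitf and Kit lay between -0.11 (Tyrp1, day 3) and 0.16 (Dct, day 7). Whether the effect of injury differed between days was tested as an interaction, and 0 of 6 genes passed for day 3 against day 1 (0.122% of all genes did), for day 7 against day 1 (0.163%), and for day 7 against day 3 (0%, with 1013 genes at an unadjusted p below 0.05).

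**Figure D2:**
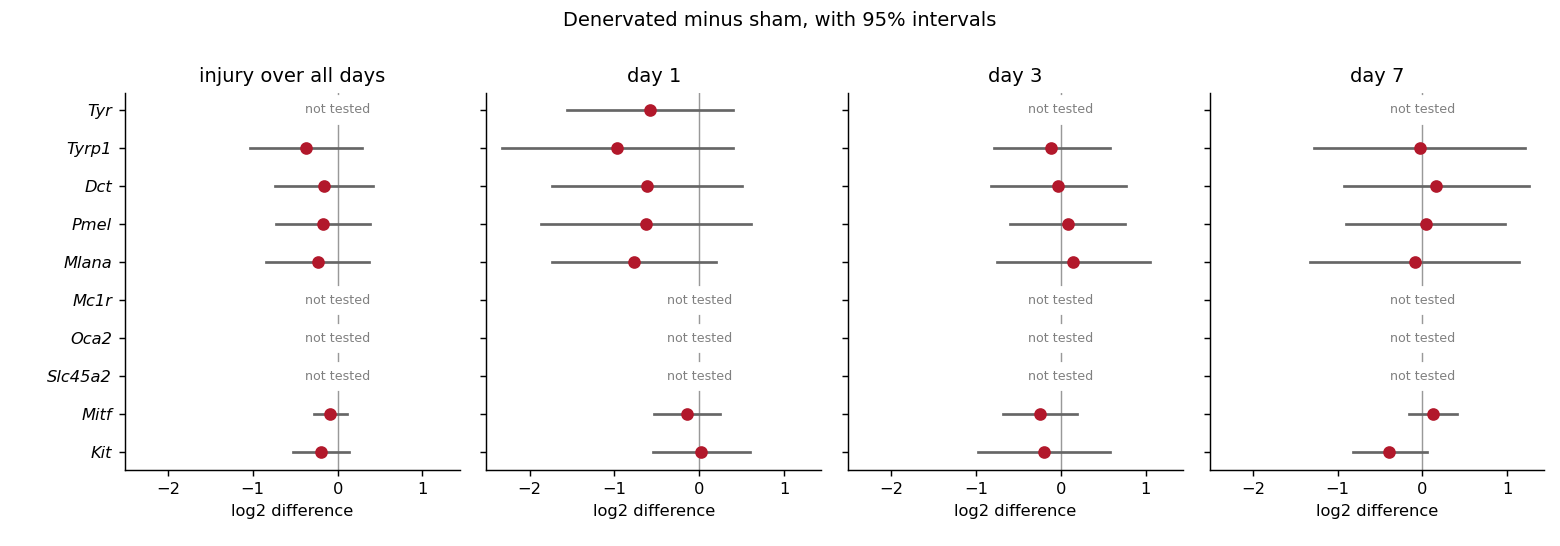
Log2 difference of denervated minus sham (points) with the 95% interval (lines) for each gene that passed the filter, over all days and at days 1, 3, and 7, from limma on log2(TPM + 0.5). Every interval in this model, which has no term for the mouse, crosses 0. The day 1 intervals of Tyrp1 and Pmel are among the widest, and Mitf has the narrowest interval over all days, from -0.28 to 0.11.

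The 2 sides of a mouse were also compared directly. The mean within-mouse difference over 9 mice was -0.37 ± 1.20 (SD) for Tyrp1, -0.16 ± 1.01 for Dct, -0.17 ± 0.95 for Pmel, and -0.23 ± 1.02 for Mlana on the log2 scale, so that the SD was several times the mean. An exact two-sided sign-flip permutation test over 9 mice gave p = 0.383 for Tyrp1, 0.648 for Dct, 0.629 for Pmel, and 0.512 for Mlana, where the smallest p possible is 0.0039. The low genes were no different in this respect, with exact permutation p of 0.301 for Tyr (higher on the denervated side in 3 of 9 mice), 0.777 for Mc1r (5 of 9), 0.418 for Oca2 (4 of 9), and 0.453 for Slc45a2 (5 of 9). In the same test, 16.2% of all genes had an unadjusted p below 0.05, 0 after adjustment, and 0 of the 10 genes did. The adjustment over 14757 genes says little here, since even a gene at the smallest p passes only if many others reach it too. The SD of a single side within a mouse is the SD of the differences divided by the square root of 2. It was 0.85 for Tyrp1 and 0.72 for Dct, and the SD between the means of the mice was 0.36 and 0.41. For Mc1r the 2 values were 0.53 and 0.51 and for Kit 0.39 and 0.39. A mean of 2 sides varies less than a single side, so these 2 SDs are not on one scale.

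Within a mouse, the melanocyte genes nevertheless moved as a block. Tyrp1, Dct, Pmel, and Mlana were all higher on the denervated side in 4 mice (mouse 1 of day 1, mice 1 and 3 of day 3, and mouse 1 of day 7) and all lower in the other 5, and in 0 of 9 mice did they split. These are the genes that passed the filter other than Mitf and Kit, grouped after their values were seen. In day 7 mouse 1 the log2 differences were 1.51 for Tyrp1, 1.39 for Dct, 0.98 for Pmel, and 1.04 for Mlana, and in day 1 mouse 2 they were -2.46, -1.80, -2.04, and -2.02. Across the 9 mice the within-mouse differences of these 4 genes had a Pearson r of 0.92 to 0.99 over the 6 pairs, and 0.80 to 1.00 without those 2 mice. The points share libraries and their depth, and the r values are descriptions.

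**Figure D3:**
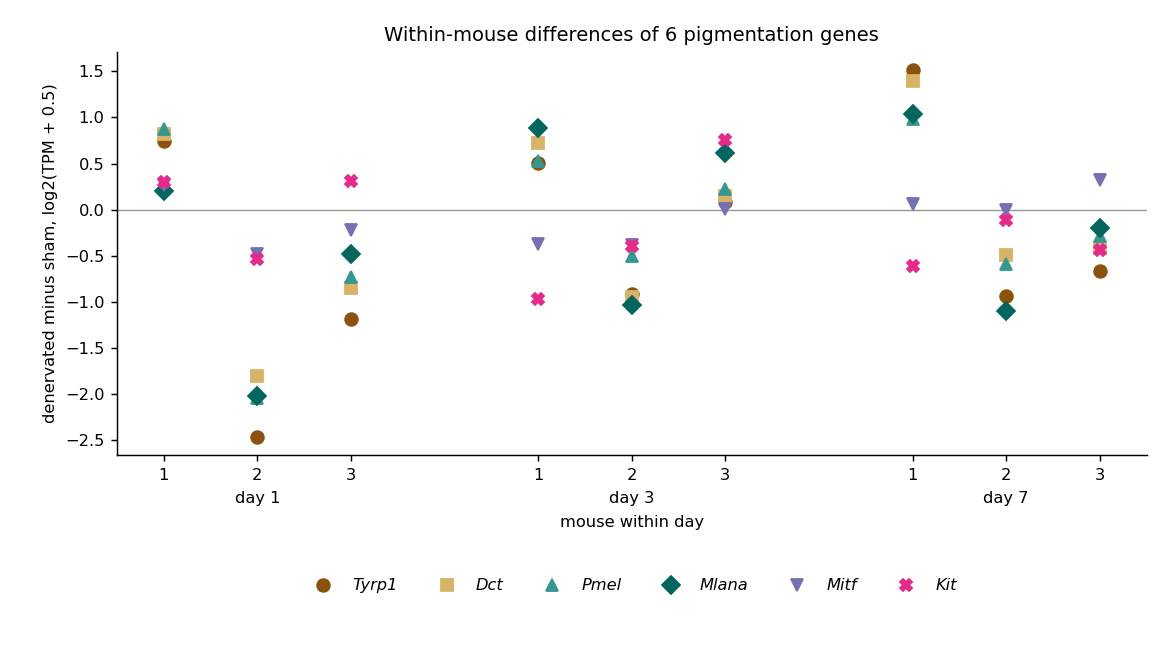
Within-mouse difference of denervated minus sham on log2(TPM + 0.5) for 6 genes in each of 9 mice, with 3 mice a day. The symbols of Tyrp1, Dct, Pmel, and Mlana lie on the same side of 0 in each mouse, above it in 4 and below it in 5, while Mitf and Kit stay between -0.97 and 0.76 and each lie on the same side as the 4 genes in 6 of 9 mice.

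The low genes followed the same pattern as far as their counts allow. Mc1r, Oca2, and Slc45a2 had an r of 0.81 to 0.92 with the 4 genes across the within-mouse differences. Slc45a2 was at 0.722, 1.73, and 0.718 TPM in the sham side at day 1 and 1.25, 0.216, and 0.564 TPM in the denervated side. Mc1r, whose exon shares 653 bases with the gene model Gm38092 on the opposite strand, at day 1 was at 0.986, 2.76, and 0.806 TPM against 1.84, 0.576, and 0.870 TPM. In day 7 mouse 3 it reached 1.91 TPM on both sides, below only the sham side of day 1 mouse 2, while the 4 genes were lower on the denervated side there. Mitf had an r of 0.43 to 0.55 with the 4 genes, and Kit one of -0.03 to 0.07.

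Markers of other cells moved beside the melanocyte genes to different degrees. Across the 9 within-mouse differences, the mean log2 level of 4 basal keratinocyte markers (Krt5, Krt14, Krt15, Col17a1) had an r of -0.67 with Dct and -0.69 with Tyrp1, and that of 8 Schwann cell markers 0.60 with each. Summed basal keratinocyte markers ranged from 5778 to 8176 TPM in day 1 sham and from 6082 to 6652 TPM in day 1 denervated samples. For 13 measured markers of the hair shaft and inner root sheath the r was 0.54 with Dct and for skeletal muscle 0.23. Summed hair markers ranged from 1578 to 2710 TPM in day 1 sham and from 1651 to 6780 TPM in day 1 denervated samples. Summed Schwann cell markers ranged from 301 to 715 TPM in day 1 sham and from 167 to 452 TPM in day 1 denervated samples, and 0 of the markers of these lists was at 0 in all samples. The part of these cells in the melanocyte values was not tested.

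The second question was whether the genes differed between the days. The day is a difference between mice, so both sides of a mouse were averaged. Tyr, Tyrp1, Dct, Pmel, Mlana, Mc1r, and Slc45a2 had their highest mean at day 1, and Oca2 did not (0.52, 0.521, and 0.533 TPM at days 1, 3, and 7). Dct was at 23.1 ± 3.24 TPM (SD, n = 3 mice) at day 1, 13.8 ± 2.40 at day 3, and 16.3 ± 4.38 at day 7. Mlana was at 17.6 ± 4.32, 7.80 ± 1.17, and 9.31 ± 4.45 TPM, and Pmel at 16.3 ± 2.62, 9.40 ± 2.09, and 9.36 ± 2.68 TPM. In Tyr, Tyrp1, Dct, Pmel, Mlana, Slc45a2, and Kit the 3 mice of day 1 were all above those of day 3, 7 of the 10 genes and 5 of the 6 that passed the filter, where 12.4% of all genes tested did so. Day 1 mice were all above day 7 mice for Tyr, Pmel, and Slc45a2, 1 of the 6 (16.2% of all genes), and all below them for Mitf, also 1 of the 6 (20.4% of all genes).

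None of these differences passed the adjustment. In limma 0 of 6 genes passed for day 3 against day 1 (3.56% of all genes did), 0 of 6 for day 7 against day 1 (13.7%), and 0 of 6 for day 7 against day 3 (0%, with 1752 genes and Kit alone of the 6 at an unadjusted p below 0.05). Mlana came nearest, with a log2 difference of -1.05 (SE 0.28, adjusted p = 0.0708) at day 3 and -0.90 (SE 0.28, adjusted p = 0.0641) at day 7, both against day 1. Without day 7 mouse 2 it passed in both, with adjusted p of 0.0362 and 0.0229 in limma, and with each of the 9 mice left out in turn the adjusted p ran from 0.0362 to 0.234 and from 0.0229 to 0.165. Pmel was at -0.65 (adjusted p = 0.172) and -0.69 (0.0985), and Dct at -0.64 (0.163) and -0.46 (0.231). The scale of the samples mattered for the comparison of day 7 with day 1: with values rescaled to an equal sum Mlana passed at -1.07 (adjusted p = 0.037), and rescaled to the basal keratinocyte markers it was at -0.45 (0.221) and Dct at 0. That second rescaling moved the median of all genes from 0.01 to 0.45, and the share of passing genes that were higher at day 7 went from 64.5% to 33.1% with equal sums and to 99.4% with the keratinocyte markers.

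Kit and Mitf are read apart from the pigment genes, since other cells express them too. Kit was at 5.43, 10.3, and 6.14 TPM in the sham side at day 1 and at 6.80, 6.95, and 7.75 TPM in the denervated side. At day 3 it was at 6.07, 5.77, and 4.18 TPM against 2.86, 4.28, and 7.42 TPM. At day 7 it was at 11.8, 7.76, and 11.6 TPM against 7.57, 7.15, and 8.40 TPM, so that all 3 mice were lower on the denervated side. The log2 difference was -0.39 (interval -0.82 to 0.05, adjusted p = 0.471 in limma). With the mouse as block the interval was -0.75 to -0.02, which leaves out 0 (unadjusted p = 0.0406, adjusted p = 0.258 in limma). Averaged over the sides, Kit was at 7.23 ± 1.29, 5.10 ± 0.67, and 9.04 ± 1.39 TPM at days 1, 3, and 7 (SD, n = 3 mice). The mice of days 3 and 7 did not overlap (9.55% of all genes were higher at day 7 without overlap), at a log2 difference of 0.80 (SE 0.16, unadjusted p = 0.000894, adjusted p = 0.229 in limma).

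Kit had higher correlations with mast cell genes than with melanocyte genes. Mast cells, which depend on KIT, were followed through 9 markers, among them the proteases Cpa3, Cma1, Mcpt4, and Tpsb2. Their summed level was 31.1, 317, and 203 TPM in the sham side at day 1, 267, 340, and 144 TPM at day 3, and 623, 298, and 385 TPM at day 7. In the denervated side it was 68.3, 173, and 103 TPM, 66.5, 211, and 321 TPM, and 385, 341, and 315 TPM. Across the 18 samples Kit had an r of 0.59 with the log2 of this sum, and 0.74 without both samples of day 1 mouse 1, which had the lowest sum in the sham side. Across the within-mouse differences Kit had an r of 0.47 (Hdc) to 0.87 (Tpsb2) with 8 of these markers. Tpsab1 was not among the 8, and its own r was not computed. With the mean log2 level of all 9 markers Kit had an r of 0.78. Its r was also 0.78 with Ms4a2, a subunit of the IgE receptor, and -0.05 with the melanocyte channel gene Trpm1. Dct had an r of -0.1 to 0.25 with the 8 markers and 0.93 with Trpm1. Mitf had one of 0.42 to 0.7 with the markers and 0.5 with Trpm1. By mean log2 level of each marker list, Mitf had an r of 0.63 for mast cells and for macrophages. It was 0.73 for the interstitial cell markers Ano1 and Etv1, 0.67 for suprabasal keratinocytes, 0.62 for fibroblasts, and 0.56 for skeletal muscle. It was 0.52 for melanocytes, 0.48 for hair, 0.13 for Schwann cells, and -0.48 for basal keratinocytes. Over the 9 mast cell markers the median log2 difference between day 7 and day 1 mice was 0.86. Of these, 3 were higher at day 7 and 0 lower (8.81% and 4.86% of all genes). They were Cpa3, Cma1, and Mcpt4, higher by 2.08, 2.23, and 2.2 on the log2 scale (adjusted p = 0.04, 0.0256, and 0.042 in limma), also under both rescalings. Without day 7 mouse 1 they were at 0.124, 0.089, and 0.129, and they passed in 3, 6, and 2 of 9 fits without 1 mouse. The part of mast cells in the Kit values was not tested.

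**Figure D4:**
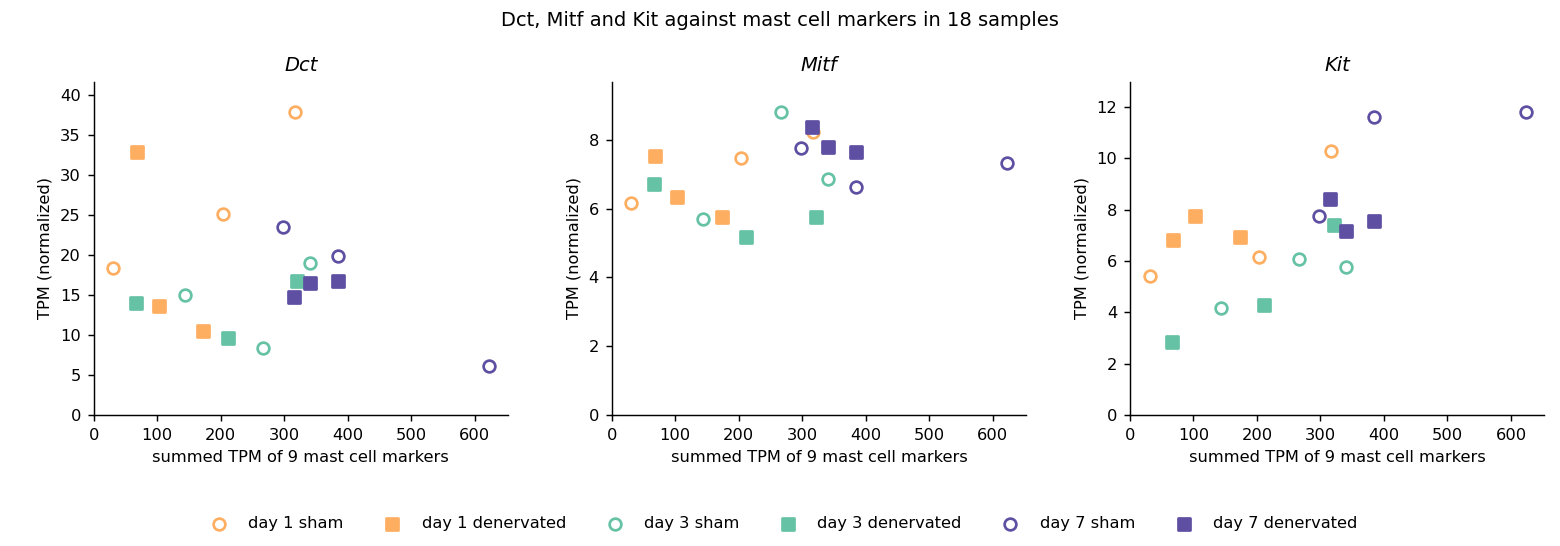
Levels of Dct, Mitf, and Kit (TPM, y axes from 0) against the summed TPM of 9 mast cell markers in the 18 samples, colored by day, with open circles for sham and filled squares for denervated samples. Kit had an r of 0.59 with the mast cell sum on log2 values, but the sham side of day 3 mouse 2 (340 TPM) has Kit at 5.77 TPM. The sample with the highest sum, the sham side of day 7 mouse 1 (623 TPM), has the lowest Dct (6.09 TPM). The sample with the highest Dct (37.9 TPM), the sham side of day 1 mouse 2, has a sum of 317 TPM. Dct had an r of -0.18 with the mean log2 level of the markers over the 18 samples.

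Mitf was the steadiest of the 10 genes. It was at 6.17, 8.24, and 7.47 TPM (sham) and 7.53, 5.76, and 6.34 TPM (denervated) at day 1, at 8.81, 6.87, and 5.71 TPM against 6.71, 5.18, and 5.75 TPM at day 3, and at 7.33, 7.78, and 6.62 TPM against 7.66, 7.79, and 8.37 TPM at day 7. Its within-mouse difference was -0.09 ± 0.29 on the log2 scale (exact sign-flip permutation p = 0.387, higher in 5 of 9 mice). With values rescaled to the basal keratinocyte markers, the difference between day 7 and day 1 mice was 0.58 for Mitf and 0.75 for Kit, and both passed (adjusted p = 0.0395 and 0.0229 in limma), while as deposited they were 0.13 and 0.30 and did not, and with equal sums Mitf was at -0.03.

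The transcripts behind the sums differed between Mitf, Kit, and the enzymes. The authors' pseudoalignment assigned 98.3% of the Mitf level to 1 coding transcript, Mitf-202 (chr6:97807058-98021349, + strand, GRCm38). It starts close to the most upstream annotated start, that of Mitf-207 (97807052), which was at 0 TPM in every sample. The 3 transcripts that start at the melanocyte (M) promoter took 1.48%, a mean of 0.104 TPM, and were listed at 0 in 7 of 18 samples. Mitf-202 is also the transcript with the longest 3′ end, 2642 bases past the next coding end, so that a distal start and the long 3′ end cannot be told apart in these values.

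For Kit, 77.5% of the level (53.9% to 91% by sample) was on Kit-208, a transcript annotated as a retained intron at the 3′ end of the gene (chr5:75649094-75656694, + strand). The 2 full-length coding transcripts took 12%, a mean of 0.852 TPM. As assigned, the summed Kit level is thus mostly not coding transcript. However, Kit-208 ends at 75656694 and both coding transcripts at 75656722. Reads from a 3′ end that they share cannot be told apart, so the split between them is uncertain. At day 7 these coding transcripts were at 1.39, 0.919, and 1.83 TPM (sham) against 1.67, 0.778, and 0.757 TPM (denervated). In mouse 1 they were thus higher on the denervated side, unlike the sum. In day 3 mouse 1 they were at 1.44 TPM (sham) and 0.312 TPM (denervated). Averaged over the sides, the mice of days 3 and 7 thus overlapped in them, also unlike the sum. Tyr (98.7% on Tyr-201) and Pmel (99.7% on Pmel-201) were almost wholly 1 coding transcript, and Mlana, Mc1r, and Slc45a2 had 1 transcript each. Dct-201, the coding transcript of Dct, took 71.3%, and Dct-202, a retained intron, 17.6%. In Tyrp1 the split between Tyrp1-202 (70.3%) and Tyrp1-201 (24.3%) went from nearly 0 to 100% between samples, so Tyrp1 was read from the sum.

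The genes around melanin were then counted by role. Of 11 further melanosome membrane and channel proteins, 8 were tested over all days and 1 was higher in the denervated side, 0 lower (1.92% and 1.18% of all genes). It was Cd63, a tetraspanin of melanosomes and of late endosomes in most cells. Cd63 was at 238 to 314 TPM in day 3 sham and at 497 to 537 TPM in day 3 denervated samples, which did not overlap, a log2 difference of 0.96 (SE 0.13, adjusted p = 0.0244 in limma), and at 0.52 over all days (adjusted p = 0.025). With the mouse as block the adjusted p was 0.0502 over all days, so that the call was lost, and 0.042 at day 3. At day 3, 1.01% of all genes were higher. It passed in 4 of 9 fits over all days without 1 mouse (adjusted p up to 0.104, without day 3 mouse 2) and in 1 of 3 at day 3 (up to 0.455, without the same mouse). Rescaled to the basal keratinocyte markers it was at 0.66 over all days (adjusted p = 0.0522). Of 23 genes of melanosome biogenesis and transport, 23 were tested and 0 passed, with 3 at an unadjusted p below 0.05 and a median of -0.01. Of 11 melanocyte transcription factors, 10 were tested and 0 passed (median -0.10), and of 13 ligands, receptors, and modulators, 7 were tested and 0 passed (median 0.08). The median of all genes was 0.01.

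Between mice of different days, more of these genes passed. At day 3, Kitl, the ligand of Kit (log2 difference from day 1 of 0.82, adjusted p = 0.0462), Zeb2 (0.67, 0.0471), and Cd63 (0.71, 0.0307 in limma) were higher, 1 of 7, 1 of 10, and 1 of 8 in their lists, where 2.88% of all genes were. Leaving out 1 mouse at a time, Kitl passed in 0 of 9 fits, Zeb2 in 1, and Cd63 in 3. With equal sums Kitl and Zeb2 no longer passed (adjusted p = 0.0784 and 0.0524 in limma), and neither did Kitl, Zeb2, or Cd63 after rescaling to the keratinocyte markers (0.0557, 0.0664, and 0.0641). At day 7, Kitl was higher than at day 1 (0.90, adjusted p = 0.0185 in limma), also under both rescalings and in 7 of 9 fits without 1 mouse (adjusted p = 0.0565 without day 7 mouse 1). Trpm1, a channel of melanocytes, was at 5.27 to 9.42 TPM in day 1 sham and at 1.22 to 4.78 TPM in day 7 sham samples, and the denervated sides overlapped, at 2.69 to 7.95 and 2.18 to 4.08 TPM. Averaged over the sides it was lower at day 7 than at day 1 (-0.92, SE 0.24, adjusted p = 0.0419 in limma), or at -0.50 with an adjusted p of 0.0633 after rescaling to the keratinocyte markers, and it passed in 2 of 9 fits without 1 mouse. Zeb2, a transcription factor of melanocytes and of other cells, was higher at day 7 (0.93, adjusted p = 0.0107) and passed in 9 of 9 such fits. Tfap2a, a transcription factor of melanocytes and keratinocytes, was lower (-0.57, adjusted p = 0.0134, 8 of 9 fits), as were Hps1, Bloc1s2, and Rabggta (-0.39, -0.28, and -0.45), which serve organelle biogenesis and passed in 0, 1, and 6 of 9 fits. Of those 4 lower genes, the last 3 turned to between 0.02 and 0.19 and Tfap2a went to -0.10 after rescaling to the keratinocyte markers. In all, at day 7 against day 1, 0 of 8 melanosome membrane genes were higher and 1 lower, 0 of 23 biogenesis genes higher and 3 lower, 1 of 10 transcription factors higher and 1 lower, and 1 of 7 ligands and receptors higher and 0 lower, where 8.81% of all genes were higher and 4.86% lower.

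The genes most like the 6 that passed the filter were ranked by Pearson r with the mean z score of those 6 over the 18 samples, among 14757 genes. The first were Slc24a5 (r = 0.86), the melanosomal cation exchanger, and Trpm1 (r = 0.84). Slc24a5 ranged from 3.47 to 6.97 TPM in day 1 sham samples and from 1.73 to 6.97 TPM over all samples. Next came Mtcl1 (0.79), Them4 (0.77), Ccdc173 (0.76), Hey2 (0.76), Alox8 (0.75), Mtmr10 (0.74), Aftph (0.69), and Zfand4 (0.69). The top 2 of the ranking were thus genes of the melanosome membrane and channel list, whereas Gpnmb of the same list, named after its value was seen, was 64th (r = 0.59) and Cd63 was 14476th (r = -0.46). Sox10, which melanocytes and Schwann cells share, had an r of 0.09.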

How the data were processed

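RNA-seq was done by the authors on 18 punches with the TruSeq RNA kit v2 on a NextSeq. Reads were base called with bcl2fastq 2.17.1.14, cleared of duplicates (ParDRe), trimmed (Fastp), pseudoaligned to Ensembl cDNA (GRCm38) by kallisto 0.43.1, and read into sleuth. The deposited table is a signal: TPM after the authors' normalization across samples, with sums of 833186 to 1143839. Tests had been chosen for plain TPM and were kept.

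Transcripts (98.46% matched to GENCODE M21) were summed to 35150 genes. Depth was estimated from low values of long transcripts, of which 74.9% to 82.0% lay within 0.1 of a whole read (20% if spread evenly); it covers counting error only. Log2(TPM + 0.5) was tested with limma 3.58.1 (R 4.3.3, mean-variance trend), with a term for the day over all days, and at an adjusted p of 0.05. The main model, as in the study, has no term for the mouse, and a fit with the mouse as block was run beside it. Both sides come from the same animal, and their deviations from the group means had an r of 0.16 to 0.57 over 14757 genes. Scripts were tested on simulated data; Python 3.11.15 was used for the rest. Named genes were the 10 members, genes of 4 pathway lists that passed a test, otherwise each list's highest, marker genes, and the 10 genes most like the members. Members and lists were chosen with earlier results of these data known. Krt85 did not match. The 3 mice of a day are separate animals.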

Additional observations from a re-analysis of the deposited data

How the results depend on the processing

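The alternatives were pseudocounts, filters, rescaling, single transcripts, each mouse left out, and the mouse as replicate block. Under them, 611 of 644 recomputed values were kept. Of these, 455 were differences between the sides for a single gene, which kept their direction and side of the threshold. The other 156 were counts of genes that passed, which stayed the same and hold no direction. Differences of single genes between days were not among the 644. The replicate block changed 0 calls among the 10 genes, but it ended the call of Cd63 over all days (adjusted p = 0.0502 in limma). The count of genes that passed went from 0 to 1 for day 3 against day 1 between mice, and from 0 to 1 for day 7 against day 1, without day 7 replicate 2 (Mlana in both). It went from 0 to 1 after rescaling to an equal sum (Mlana) and from 0 to 2 after rescaling to the basal keratinocyte markers (Mitf and Kit) for day 7 against day 1. Day calls of the whole table depend on this choice, with 1300 genes higher and 717 lower as deposited and 5502 and 35 after the second rescaling.

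Differences between sides that turned sign among the 10 genes were uncalled. Rescaling to the keratinocyte markers gave 0.04 for Mitf over all days and within mice, 0.06 for Tyrp1 and 0.15 for Dct at day 3, 0.07 for Tyrp1 and 0.01 for Mlana at day 7, and 0 for Mc1r within mice. Between days, it turned Tyrp1 at day 7 against day 1 to 0.05, Mitf at day 3 against day 1 to 0.12, and Pmel at day 7 against day 3 to 0.19, and of called genes Hps1, Bloc1s2, and Rabggta to 0.05, 0.19, and 0.02. Equal sums turned Mitf at day 7 against day 1 to -0.03. The top transcript alone gave 0.85 for Tyrp1 at day 7. Leaving out 1 mouse at a time gave, over all days and likewise within mice, -0.35 to 0.05 for Dct and -0.32 to 0.06 for Pmel, and within mice -0.18 to 0.11 for Mc1r. At day 1 it gave -1.38 to 0.07 for Pmel, -0.35 to 0.02 for Mitf, and -0.12 to 0.31 for Kit. At day 3 it gave -0.41 to 0.3 for Tyrp1, -0.4 to 0.43 for Dct, -0.14 to 0.38 for Pmel, -0.21 to 0.74 for Mlana, and -0.68 to 0.18 for Kit. At day 7 it gave -0.8 to 0.42 for Tyrp1, -0.45 to 0.49 for Dct, -0.43 to 0.35 for Pmel, and -0.65 to 0.42 for Mlana. The cause of these changes was not tested. Left-out mice and rescalings for pathway and mast cell genes, and correlations without some mice, were chosen after seeing the data. Depth limits Oca2, Slc45a2, and Mc1r most.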
